A study of Mus musculus with 6 samples.

Results

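The *Slco* genes encode organic anion transporting polypeptides, membrane carriers that take bile acids, bilirubin, steroid conjugates, thyroid hormones and many drugs into cells without using the sodium gradient. In liver they sit mainly on the sinusoidal face of hepatocytes, which meets the blood. In mouse liver *Slco1a1* is known as a male-predominant gene and *Slco1a4* as a female-predominant gene, and *Slco1a4* is a known target of the xenobiotic receptor PXR and of the oxidative stress factor NRF2. Here 6 of them, *Slco1a1*, *Slco1a4*, *Slco1b2*, *Slco2a1*, *Slco2b1* and *Slco3a1*, are described out of 23282 genes counted per library. They were chosen by gene symbol, and the family was picked because *Slco1a4* was higher in every knockout liver. The difference between genotypes in these 6 genes is therefore given as a description, and no *p* value of a member is printed. Counts of members called are given below, and nothing is read from them.

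RNA-seq was done on livers of 3 *Alb-Cre;Tcf7l2 f/f* mice (knockout; libraries 7-2, 7-3 and 8-3) and 3 *Tcf7l2 f/f* mice without Cre (wild type; libraries 7-2, 8-1 and 8-3). All were C57BL/6 mice by the labels (C57BL/6N in the study's methods), aged 12 weeks, that carried the floxed allele, were fasted for 24 h and then had normal chow for 24 h. The study's methods describe mice of these genotypes as male where they give the diets, and give no separate sex for the sequenced livers. The albumin promoter drives Cre in hepatocytes, so other liver cells keep *Tcf7l2*, which encodes a transcription factor of the Wnt pathway. The allele is floxed at exon 5, whereas the counts cover the whole gene. *Tcf7l2* stood at 3.31, 2.74 and 3.33 CPM (counts scaled to a common library size with TMM factors) in the knockout livers, against 4.88, 6.13 and 6.85 CPM in the wild-type livers. The log2 fold change of *Tcf7l2* was −0.93 (SE 0.19), and its adjusted *p* was 0.0856 in the quasi-likelihood fit of edgeR and 0.00274 in DESeq2. Every knockout value lay below every wild-type value.

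The libraries held 60619938 to 68760956 counts in knockout and 67299258 to 133384586 counts in wild type. Genes named *Mup*, secreted urinary proteins of male mouse liver, took 18.5% to 28.7% of counts in knockout and 31.7% to 54.3% in wild type, with the highest share in wild-type library 8-1. With library sizes alone the median log2 fold change of the 14076 genes tested was 0.61, and with TMM factors it was −0.02. Hepatocyte markers (6 of 6 detected, among them *Alb* and *Ttr*) fitted the labelled tissue. The labels do not say whether libraries with the same number share a litter or day. The *p* values set the difference between genotypes against the spread between livers of 1 genotype, among these 6 samples only.

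Of the 6 genes, 3 lie on chromosome 6 in the *Slco1* cluster (coordinates of GRCm38.p6, the same assembly as mm10). From *Slco1c1* to *Slco1a5* the cluster spans 798.6 kb and holds 8 genes of the count table. *Slco1b2* runs from 141629452 to 141686646, *Slco1a4* from 141805438 to 141856284 and *Slco1a1* from 141907281 to 141946962. The gap between *Slco1a4* and *Slco1a1* is 51 kb. Between *Slco1b2* and *Slco1a4* the reference places *Gm5724* (141707696 to 141778119), which has no row in the count table used here. The others lie alone: *Slco3a1* from 74275418 to 74554780 and *Slco2b1* from 99657804 to 99711340 on chromosome 7, and *Slco2a1* from 103007061 to 103096002 on chromosome 9. The coding sequence of *Slco1a4* is 86.7% identical to that of *Slco1a1* and 89.4% identical to that of *Slco1a5*, but 54.9% to *Slco1b2*, 49.1% to *Slco2b1*, 48.6% to *Slco2a1* and 48.2% to *Slco3a1*.

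The DNA just upstream of the 3 clustered members is shown because these genes of 1 cluster differ in how far their mRNA differed between the genotypes. Windows of 300 bases (250 before and 50 after a start site, from RefSeq on GRCm38.p6) were found for 5 of the 6 genes. The part upstream of the gene's outermost annotated start is printed on the strand of the gene, 5′ to 3′. Capitals mark matches, on either strand, to the letters CTTTGA or CTTTGT (TCF/LEF core), TGACNNNGC (NRF2 element), GCGTG (AhR core), GTTAAT (HNF1 core), TTCNNNGAA (STAT5 element), or AGGTCA or AGTTCA (nuclear receptor cores).
*Slco1a4*, chr6:141856285-141856470, minus strand: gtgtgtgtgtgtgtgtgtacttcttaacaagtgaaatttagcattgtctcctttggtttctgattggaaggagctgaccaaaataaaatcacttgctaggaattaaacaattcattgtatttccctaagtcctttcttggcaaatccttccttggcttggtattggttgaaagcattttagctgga
*Slco1a1*, chr6:141946963-141947212, minus strand: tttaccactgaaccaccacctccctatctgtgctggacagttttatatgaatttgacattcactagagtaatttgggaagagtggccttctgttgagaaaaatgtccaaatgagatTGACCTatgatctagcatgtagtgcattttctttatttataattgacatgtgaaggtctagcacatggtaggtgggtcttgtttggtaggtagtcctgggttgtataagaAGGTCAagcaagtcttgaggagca
*Slco1b2*, chr6:141629268-141629451, plus strand: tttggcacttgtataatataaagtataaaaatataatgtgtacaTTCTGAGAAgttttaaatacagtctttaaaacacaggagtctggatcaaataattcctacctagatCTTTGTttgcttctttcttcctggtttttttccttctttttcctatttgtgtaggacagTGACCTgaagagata

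The *Slco1a4* window held no match to any of the 8 motifs. *Slco1a1* had AGGTCA (on either strand) at 134 and at 24 bases before the start site. *Slco1b2* had the STAT5 letters 206 bases, CTTTGT 140 bases and AGGTCA 81 bases before the start, and GTTAAT at 66 bases and AGTTCA at 54 bases and once after the start, in the stretch not printed. No matches overlapped in these windows. Such short motifs are common: over 32851 windows of the same length, CTTTGA occurred in 16%, CTTTGT in 18.7%, TGACNNNGC in 12.4%, GCGTG in 32.4%, GTTAAT in 7.1%, TTCNNNGAA in 8.3%, AGGTCA in 16.3% and AGTTCA in 14%. A match is a description of the letters and not evidence of binding. The lack of a match in a window is also a description only, and DNA outside the windows was not searched.

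*Slco1a4* encodes Oatp1a4, a broad carrier of bile acids, steroid conjugates and cardiac glycosides. In the knockout livers 7-2, 7-3 and 8-3 it stood at 22.3, 20.7 and 29.5 CPM, from 1887, 1570 and 2538 counts. In the wild-type livers 7-2, 8-1 and 8-3 it stood at 2.92, 5.63 and 5.17 CPM, from 194, 471 and 352 counts. The groups did not overlap, and the lowest knockout liver, 7-3, lay well above the highest wild-type liver, 8-1. The mean was 24.1 ± 4.68 CPM in knockout and 4.57 ± 1.45 CPM in wild type (SD, *n*=3 each), a log2 fold change of 2.40 (SE 0.25). Among all genes tested, 0.192% had a larger log2 fold change. *Slco1a4* was chosen for its rise, so this rank is a description only. Wild-type library 7-2 was the lowest of all, and leaving it out brought the log2 fold change to 2.16, the smallest under any alternative processing tried.

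*Slco1a1* encodes Oatp1a1, an abundant carrier of male liver for bile acids and sulfated steroids. It stood at 260.2, 236 and 247 CPM in knockout livers 7-2, 7-3 and 8-3, against 142, 146 and 128 CPM in wild-type livers 7-2, 8-1 and 8-3. Again no knockout value fell within the wild-type range, and the spread within each genotype was the smallest of the 6 genes (coefficient of variation 4.85% in knockout and 6.6% in wild type). The mean was 248 ± 12 CPM in knockout and 139 ± 9.16 CPM in wild type (SD, *n*=3 each), a log2 fold change of 0.84 (SE 0.15). So both *Slco1a1*, with its male bias, and *Slco1a4*, with its female bias, had the higher mean in knockout.

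*Slco1b2*, the liver-specific carrier of unconjugated bile acids, bilirubin and statins, was the most abundant member. Its values were 337, 345 and 418 CPM in knockout livers 7-2, 7-3 and 8-3, against 331, 288 and 295 CPM in wild-type livers 7-2, 8-1 and 8-3. The groups were apart by a narrow margin, with knockout 7-2 just above wild-type 7-2, and the log2 fold change was 0.27 (SE 0.17).

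The other members are carriers of wider tissue range, and their groups overlapped. *Slco2b1*, a carrier of steroid sulfates found in liver and gut, stood at 96.5, 81.1 and 82.2 CPM in knockout livers 7-2, 7-3 and 8-3, against 85.9, 56.2 and 80.9 CPM in wild-type livers 7-2, 8-1 and 8-3. Wild-type library 8-1 was the low value, and without it the log2 fold change of 0.22 (SE 0.19) came to 0.06. *Slco2a1*, the prostaglandin transporter, which is prominent in endothelium, stood at 31.2, 32.7 and 26.5 CPM in the knockout livers, against 30.6, 20.8 and 27.1 CPM in the wild-type livers. Its log2 fold change of 0.20 (SE 0.17) came to 0.07 without the same wild-type library.

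*Slco3a1*, a widely expressed carrier of prostaglandins and thyroxine, was the least abundant member and the only one whose mean was lower in knockout. It stood at 1.35, 2.32 and 1.49 CPM in knockout livers 7-2, 7-3 and 8-3, against 3.51, 2.09 and 2.57 CPM in wild-type livers 7-2, 8-1 and 8-3. Knockout 7-3 lay above wild-type 8-1, so the ranges crossed. Its log2 fold change of −0.67 (SE 0.29) lay between −0.94 without knockout 7-3 and −0.44 without wild-type 7-2 when 1 library was left out. With library sizes alone it was −0.12, where the median of all genes was 0.61.

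**Figure D1:**
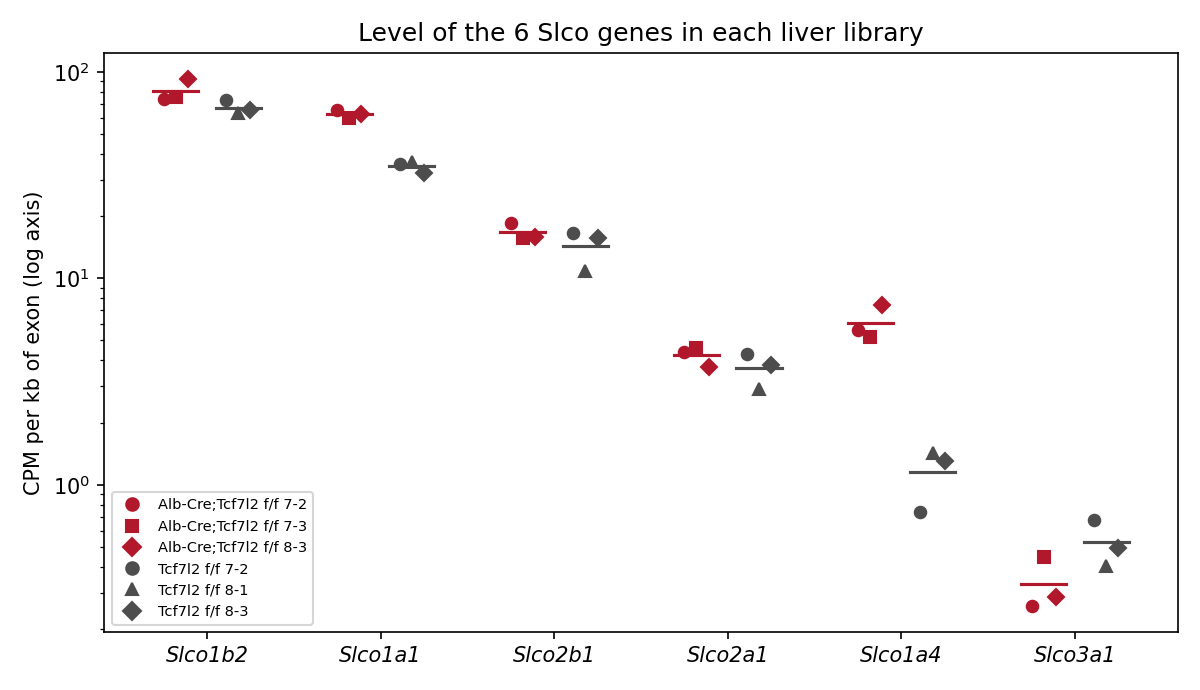
Level of each of the 6 *Slco* genes in CPM per kb of exon on a log axis, with knockout (*Alb-Cre;Tcf7l2 f/f*) points left of wild-type (*Tcf7l2 f/f*) points, 1 point per library and a line at the mean of 3. The *Slco1a4* points of knockout (5.22 to 7.43) lie above those of wild type (0.737 to 1.42), while *Slco2b1*, *Slco2a1* and *Slco3a1* overlap between the genotypes.

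Counted over the family, 5 of the 6 genes had a higher mean in knockout and 1 a lower mean, with a median log2 fold change of 0.24 beside −0.02 for all genes tested. In edgeR, at an adjusted *p* under 0.05, 1 of the 6 (*Slco1a4*) was called higher and 0 lower, where 0.0710% of all tested genes were called higher and 0.377% lower. By DESeq2 2 of the 6 (*Slco1a4* and *Slco1a1*) were called higher and 0 lower, where 1.48% of all genes were called higher and 1.78% lower. In 3 of the 6 (*Slco1a4*, *Slco1a1* and *Slco1b2*) the lowest knockout value was above the highest wild-type value, as in 10.2% of all genes tested, and in 0 of the 6 was the reverse true, as in 9.08%. Because *Slco1a4* was the reason for choosing the family, nothing is read from these counts.

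Ratios of counts within a library need no scaling between libraries. *Slco1a4* had 6.61, 6 and 7.05 counts per 100 counts of *Slco1b2* in knockout livers 7-2, 7-3 and 8-3, against 0.882, 1.95 and 1.75 in wild-type livers 7-2, 8-1 and 8-3. *Slco1a1* had 77.2, 68.6 and 59 counts per 100 of *Slco1b2* in the knockout livers, against 43, 50.5 and 43.5 in the wild-type livers. Both ratios were apart between the genotypes, where *Slco1b2* itself had a log2 fold change of 0.27. *Slco1a4* also differed against *Slco1a1*, with 8.56 to 11.9 counts per 100 in knockout and 2.05 to 4.03 in wild type. By contrast *Slco2b1* had 19.7 to 28.6 counts per 100 of *Slco1b2* in knockout and 19.5 to 27.4 in wild type, and *Slco2a1* had 6.35 to 9.49 in knockout and 7.22 to 9.24 in wild type. *Slco3a1* had 0.356 to 0.673 counts per 100 of *Slco1b2* in knockout and 0.725 to 1.06 in wild type, a narrow gap that its CPM values did not show.

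**Figure D2:**
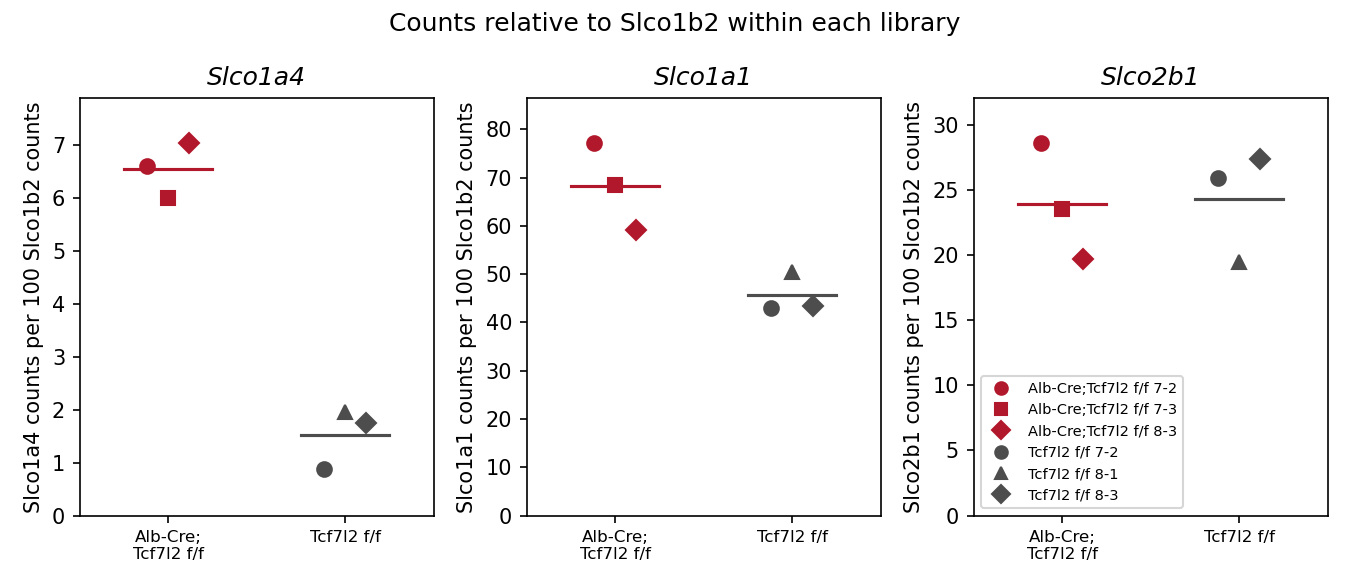
Counts of *Slco1a4*, *Slco1a1* and *Slco2b1* per 100 counts of *Slco1b2* in each library (each axis starts at 0), with knockout left of wild type and a line at the mean of 3. The *Slco1a4* and *Slco1a1* ratios of the 3 knockout livers lie above those of the 3 wild-type livers (6 to 7.05 against 0.882 to 1.95 for *Slco1a4*), and the *Slco2b1* ratios overlap.

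Levels were compared between genes after division by exon length (GENCODE canonical transcripts). In knockout the order was *Slco1b2* (80.6 ± 9.81 CPM per kb), *Slco1a1* (62.4 ± 3.03), *Slco2b1* (16.7 ± 1.66), *Slco1a4* (6.09 ± 1.18), *Slco2a1* (4.23 ± 0.453) and *Slco3a1* (0.332 ± 0.102; SD, *n*=3). In wild type it was *Slco1b2* (67.1 ± 5.05 CPM per kb), *Slco1a1* (35 ± 2.31), *Slco2b1* (14.3 ± 3.07), *Slco2a1* (3.67 ± 0.696), *Slco1a4* (1.15 ± 0.366) and *Slco3a1* (0.527 ± 0.139; SD, *n*=3). No neighbours in either order overlapped in range between libraries of 1 genotype, so *Slco1a4* and *Slco2a1* changed places between the genotypes. That change depends on the length used: per kb of coding sequence, *Slco2a1* averaged above *Slco1a4* in knockout, and their ranges of 13.7 to 17 (*Slco2a1*) and 10.3 to 14.7 CPM per kb (*Slco1a4*) overlapped. *Slco1a4* made up 3.24% to 4.1% of the summed level per exon kb of the 6 genes in knockout and 0.562% to 1.23% in wild type. *Slco1a1* made up 34.3% to 38.9% in knockout and 27.3% to 31.7% in wild type, and *Slco1b2* 44% to 50.7% in knockout and 54.8% to 55.6% in wild type. Thus *Slco1b2* led in all 6 livers, and its share of the 6 was lower in each knockout liver than in each wild-type liver although its CPM was not.

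Nearby genes of the cluster were measured at far lower levels. *Slco1a5*, the closest relative of *Slco1a4* by coding sequence among the genes compared, had 50, 52 and 51 counts in knockout livers 7-2, 7-3 and 8-3, against 6, 25 and 18 counts in wild-type livers 7-2, 8-1 and 8-3. Its groups did not overlap, and its log2 fold change was 1.49 with an SE of 0.46 (edgeR adjusted *p*=0.209, DESeq2 0.0855). *Slco1a6* had 20, 17 and 10 counts in knockout and 2, 6 and 13 in wild type (log2 fold change 0.97, SE 0.66, edgeR adjusted *p*=0.547). *Gm6614*, which the reference now names *Slco1a8*, had 20, 27 and 12 counts in knockout and 8, 5 and 16 in wild type (log2 fold change 0.82, SE 0.61, edgeR adjusted *p*=0.58). None of the 3 passed the test. *Slco1c1*, a thyroxine carrier best known from brain vessels, had at most 5 counts in any library, and *Iapp*, the islet peptide gene that lies inside the *Slco1a5* locus, had counts in 1 library only (12 in wild-type 7-2).

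Reads of the *Slco1a* genes can be hard to assign, since the authors counted multiple alignments too. Of the 50-base words in the transcript, 2.63% in *Slco1a4*, 2.22% in *Slco1a1*, 5.07% in *Slco1a5* and 5.6% in *Slco1a6* also occur in another *Slco* gene, and 0 do in *Slco1b2*, *Slco2a1*, *Slco2b1* or *Slco3a1*. *Slco1a5* had 2.01 to 3.31 counts per 100 of *Slco1a4* in knockout and 3.09 to 5.31 in wild type. A part of the *Slco1a5*, *Slco1a6* and *Gm6614* counts coming from *Slco1a4* or *Slco1a1* was not tested, so these 3 are uncertain. Nor was a part of the *Slco1a4* counts coming from *Slco1a1*, with which it also shares words. *Slco1a4* had only 2.05 to 4.03 counts per 100 of *Slco1a1* in wild type, the same order as the 2.22% of shared words. Its wild-type level, and with it the size of its fold change, is therefore uncertain too.

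**Figure D3:**
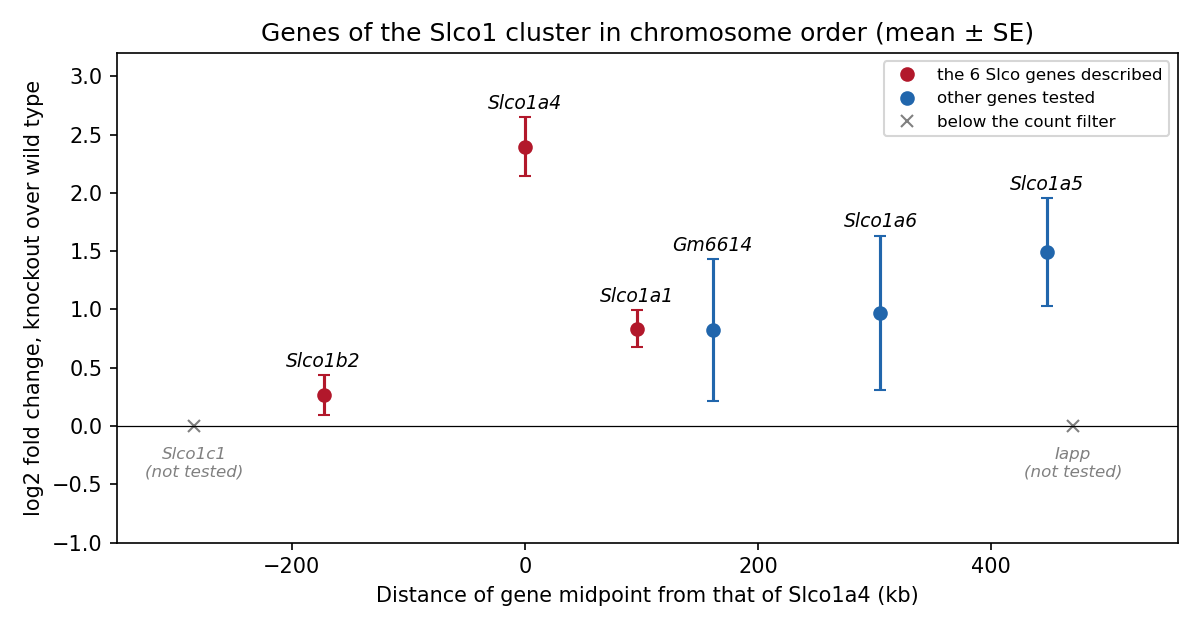
The log2 fold change of knockout over wild type with its SE (bars) for the genes of the *Slco1* cluster, against the distance of the gene's midpoint from that of *Slco1a4* in kb. *Slco1a4* stands at 2.40, the nearest counted genes on either side, *Slco1b2* and *Slco1a1*, at 0.27 and 0.84, and *Slco1c1* and *Iapp* were below the count filter and are marked at 0 with a cross.

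Of the 9 other genes named *Slco* in the table, 3 were tested. Beside *Slco1a5* and *Slco1a6* that was *Slco5a1*, with 10, 6 and 10 counts in knockout and 18, 26 and 8 in wild type (log2 fold change −1.15, SE 0.54, edgeR adjusted *p*=0.388). *Slco4a1* had 0 to 4 counts in knockout and 0 to 5 in wild type, *Slco4c1* had 1 count in all, and *Slco6b1*, *Slco6c1* and *Slco6d1* had 0 counts in every library.

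The most similar profiles over the 6 libraries were looked for among 9483 genes with a mean log2 CPM above 1, by Pearson's *r* of log2 CPM; with so many genes and 6 points that share library scaling, *r* near 1 is a description only. For *Slco1a4* they were *Atl3* (*r*=0.996), *Pja2* (0.993), *Rbm47* (0.992), *Ctnnb1* (0.988), which encodes β-catenin, and *Mylk* (0.987). All 5 had every knockout value above every wild-type value, as 10.2% of all genes tested did. Genes picked for following *Slco1a4* will tend to show this, so nothing is read from it. Their log2 fold changes were far smaller than that of *Slco1a4*: 0.44 for *Atl3*, 0.55 for *Pja2*, 0.57 for *Rbm47*, 0.20 for *Ctnnb1* and 0.67 for *Mylk*. None of them passed edgeR's test, with adjusted *p* from 0.108 for *Mylk* to 0.548 for *Ctnnb1*. For *Slco1a1* the nearest were *Stab1* (*r*=0.992), a gene of sinusoidal endothelium, *Elovl2* (0.991) and *Aaed1* (0.991). For *Slco1b2* they were *Mgll*, *Yy1* and *Tfeb* (0.983 to 0.986), for *Slco2a1* *Atp1b1*, *Mpv17* and *Zfp281* (0.982 to 0.988), for *Slco2b1* *Haao*, *Slc6a13* and *Shpk* (0.987 to 0.991), and for *Slco3a1* *Igfbp1*, *Cyp4a31* and *Fah* (0.986 to 0.988).

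Other carriers and the known regulators and co-targets of the family were followed in 10 lists, which hold 121 tested genes in all. By edgeR 5 of the 121 were called, 2 higher and 3 lower in knockout, where the share of all tested genes was 0.0710% higher and 0.377% lower. By DESeq2 that share was 1.48% higher and 1.78% lower, and at an unadjusted edgeR *p* under 0.05 it was 6.70% higher and 6.76% lower. The list counts are read against these shares. List medians are read against the −0.02 of all tested genes. With library sizes alone they moved with that median (0.61), so that the male-biased median, for example, was 0.15, which is again lower than that of all genes. Of 12 uptake carriers of the sinusoidal membrane outside the family, 0 were called by edgeR, while 1 stood higher and 2 lower if *p* was left unadjusted (under 0.05), and DESeq2 called 0 higher and 2 lower (median log2 fold change 0.06, and −0.05 to 0.13 with 1 library left out). That median turned negative without knockout 7-3 or without wild-type 8-1 (−0.03). *Slc22a3*, an organic cation carrier, averaged 0.243 ± 0.0255 CPM in knockout and 0.967 ± 0.261 CPM in wild type (log2 fold change −1.99, SE 0.36, adjusted *p*=0.0592 by edgeR and 0.000502 by DESeq2; 0.0387 by edgeR with no filter on low counts). *Slc10a1*, the sodium-dependent bile acid carrier, overlapped between genotypes (208 to 302 CPM in knockout and 197 to 259 CPM in wild type; edgeR adjusted *p*=0.638).

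Of 14 tested efflux transporters, 0 were called by edgeR, while 1 stood higher and 3 lower if *p* was left unadjusted (under 0.05), and DESeq2 called 0 higher and 1 lower (median log2 fold change 0.07, and 0.03 to 0.25 with 1 library left out, both ends from wild-type libraries, 8-1 and 7-2). *Abcc3*, which returns conjugates to blood, averaged 101 ± 12.2 CPM in knockout and 67.4 ± 17.6 CPM in wild type (edgeR adjusted *p*=0.27). *Abcb1b*, a drug efflux pump, averaged 1.28 ± 0.237 CPM in knockout and 2.66 ± 0.594 CPM in wild type (log2 fold change −1.06, SE 0.26, adjusted *p*=0.136 by edgeR and 0.0121 by DESeq2). Among 7 genes of bilirubin formation and conjugation, 0 were called by edgeR, while 1 stood higher and 1 lower if *p* was left unadjusted (under 0.05), and DESeq2 called 0 higher and 1 lower (median 0.28, and 0.18 without wild-type 8-1). The lower one was *Blvrb*, a biliverdin reductase, at 22.8 ± 3.81 CPM in knockout and 54 ± 17.8 CPM in wild type (log2 fold change −1.24, SE 0.24, adjusted *p*=0.0762 by edgeR and 6.93e-05 by DESeq2; 0.0372 by edgeR without wild-type 8-1 and 0.0344 with no filter on low counts). Of 10 tested genes of prostaglandin synthesis and breakdown, the pathway of the *Slco2a1* substrates, 0 were called by edgeR, while 3 stood higher and 0 lower if *p* was left unadjusted (under 0.05), and DESeq2 called 1 higher (median 0.16, and 0.05 without wild-type 8-1 to 0.28 without wild-type 7-2). That was *Hpgd*, which inactivates prostaglandins after uptake, at 54.4 ± 4.13 CPM in knockout and 35.3 ± 6.13 CPM in wild type (log2 fold change 0.62, SE 0.16, adjusted *p*=0.159 by edgeR and 0.0279 by DESeq2).

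Targets of the receptors PXR and CAR, to which *Slco1a4* is usually counted, were 15 other genes. Of these 1 was called higher and 0 lower by edgeR, and 5 higher and 0 lower by DESeq2. At an unadjusted edgeR *p* under 0.05, 6 were higher and 0 lower (all tested genes, 6.70% and 6.76%). The median log2 fold change was 0.28. Without knockout 8-3 that median was 0.15, and without wild-type 8-1 it was 0.18. The one called was *Cyp2b10*, a CAR target, at 0.956, 1.26 and 3.44 CPM in knockout livers 7-2, 7-3 and 8-3, against 0.135, 0.0358 and 0.162 CPM in wild-type livers 7-2, 8-1 and 8-3 (log2 fold change 4.11, SE 0.64, edgeR adjusted *p*=0.0303). That call was lost without knockout 8-3 (adjusted *p*=0.0874), when any 1 wild-type library was left out (7-2, 0.0553; 8-1, 0.0972; 8-3, 0.0888) and with limma-voom (0.107). *Cyp3a11*, the classic PXR target, averaged 1745 ± 254 CPM in knockout and 941 ± 261 CPM in wild type (log2 fold change 0.89, SE 0.25, adjusted *p*=0.18 by edgeR and 0.00464 by DESeq2), and *Ces2a*, a carboxylesterase, averaged 93.1 ± 8.31 CPM in knockout and 63.1 ± 5.88 CPM in wild type (adjusted *p*=0.167 by edgeR and 0.0262 by DESeq2).

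Of 16 NRF2 targets, 0 were called by edgeR, while 0 stood higher and 1 lower if *p* was left unadjusted (under 0.05), and DESeq2 called 0 higher and 1 lower (median log2 fold change −0.14). That median turned to 0.08 without wild-type 7-2, and lay between −0.27 and −0.06 when any other library was left out. *Gstm3*, a glutathione transferase and the gene DESeq2 called, stood at 27.2 ± 6.07 CPM in knockout and 49.5 ± 10.6 CPM in wild type (log2 fold change −0.86, SE 0.21, adjusted *p*=0.137 by edgeR and 0.00769 by DESeq2). Of 5 tested AhR targets, 0 were called by edgeR, while 1 stood higher and 1 lower if *p* was left unadjusted (under 0.05), and DESeq2 called 0 higher and 1 lower (median −0.23, and −0.33 to −0.14 with 1 library left out, the end nearer 0 without wild-type 8-3), the called gene being *Cyp1a2* at 243 ± 61.9 CPM in knockout and 485 ± 207 CPM in wild type (edgeR adjusted *p*=0.209, DESeq2 0.0174). Of 17 nuclear receptors and other regulators, 0 were called by edgeR, while 1 stood higher and 2 lower if *p* was left unadjusted (under 0.05), and DESeq2 called 0 higher and 1 lower (median 0.17, and 0.29 without wild-type 8-1). *Nr1i2*, which encodes PXR, had 13.1 to 18.1 CPM in knockout and 14.2 to 15.9 CPM in wild type, and *Nfe2l2*, which encodes NRF2, had 17 to 24.7 CPM in knockout and 12.6 to 17.2 CPM in wild type (edgeR adjusted *p*=0.843 for *Nr1i2* and 0.417 for *Nfe2l2*). *Nr0b2*, the bile acid-responsive repressor SHP, averaged 7.59 ± 1.32 CPM in knockout and 12 ± 1.34 CPM in wild type (log2 fold change −0.66, SE 0.17, adjusted *p*=0.158 by edgeR and 0.0376 by DESeq2).

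Genes with a sex bias in mouse liver were followed because *Slco1a1* and *Slco1a4* belong to opposite classes. Of 20 male-biased genes other than *Slco1a1*, 0 were called higher and 1 lower by edgeR, and 0 higher and 3 lower by DESeq2. At an unadjusted edgeR *p* under 0.05, 1 was higher and 7 lower (all tested genes, 6.70% and 6.76%). The median log2 fold change was −0.50. That median came to −0.29 without wild-type 7-2, to −0.32 with limma-voom and to −0.16 with quantile-normalised counts. The one called by edgeR was *Susd4*, a complement regulator, at 0.909, 0.395 and 1.1 CPM in knockout livers 7-2, 7-3 and 8-3, against 6.29, 6.98 and 6.14 CPM in wild-type livers 7-2, 8-1 and 8-3 (log2 fold change −3.0, SE 0.32, edgeR adjusted *p*=0.0033). Of 12 tested female-biased genes other than *Slco1a4*, 1 was called higher and 2 lower by edgeR, and 3 higher and 3 lower by DESeq2. At an unadjusted edgeR *p* under 0.05, 3 were higher and 3 lower. The median was −0.13. That median was −0.02 without knockout 8-3, −0.26 without knockout 7-3, −0.19 without wild-type 7-2 and −0.001 without wild-type 8-3. *Cyp3a44* stood at 154, 106 and 779 CPM in knockout livers 7-2, 7-3 and 8-3, against 3.37, 19.6 and 8.72 CPM in wild-type livers 7-2, 8-1 and 8-3 (log2 fold change 5.03, SE 0.88, edgeR adjusted *p*=0.0496). That call was lost when any library but knockout 7-3 was left out (adjusted *p* from 0.0515 to 0.202), and with upper-quartile factors (0.0526) or with scaling without the *Mup* genes and *Rn45s* (0.0508). *Nipal1*, a magnesium transporter, stood at 1.43, 1.46 and 0.615 CPM in the knockout livers, against 8.16, 7.98 and 7.48 CPM in the wild-type livers (log2 fold change −2.75, SE 0.30, edgeR adjusted *p*=0.0033). *Cyp2a4*, a steroid hydroxylase, had 0.0236, 0.0395 and 0.0116 CPM in the knockout livers, against 18.1, 14.7 and 20.7 CPM in the wild-type livers (edgeR adjusted *p*=9.51e-07). *Cyp3a44* and *Cyp2a4* have near-identical copies, and their counts are uncertain for that reason.

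**Figure D4:**
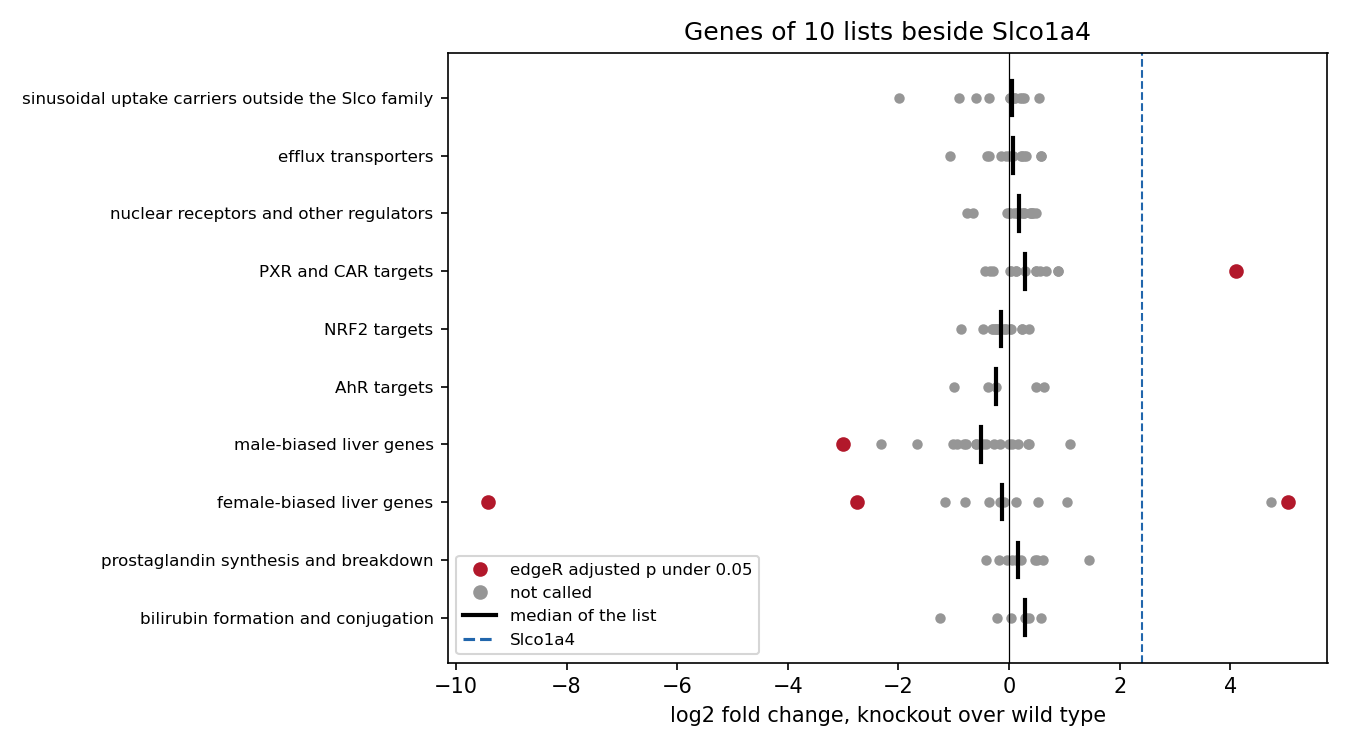
The log2 fold change of knockout over wild type for each tested gene of the 10 lists, with 1 point per gene, a bar at the list's median, red points for genes called by edgeR and a dashed line at *Slco1a4* (2.40). List medians run from −0.50 for male-biased genes to 0.28 for PXR and CAR targets and also for the bilirubin genes. Some genes belong to several lists. The called genes *Cyp2b10* and *Cyp3a44* lie to the right of *Slco1a4*. The leftmost point is *Cyp2a4*, almost at 0 in knockout, whose fitted value is therefore not a measure of size.

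Bulk RNA does not tell fewer cells of a type from less RNA per cell. Summed hepatocyte markers overlapped between knockout (52570 to 75630 CPM) and wild type (59920 to 65450 CPM). Summed markers of sinusoidal endothelium, the cells in which *Slco2a1* is prominent, were 109.8 to 114 CPM in knockout and 90.2 to 98.9 CPM in wild type, and 12 of 12 had a positive log2 fold change (median 0.30). Stellate cell markers summed to 59.6 to 65.6 CPM in knockout and 31 to 42.1 CPM in wild type, with 6 of 8 positive (median 0.81). Kupffer cell markers (67.5 to 85.3 CPM in knockout and 82.8 to 100.3 CPM in wild type, with 1 of 9 positive) and cholangiocyte markers (48.8 to 60.2 CPM in knockout and 56.6 to 75.6 CPM in wild type, with 1 of 6 positive) leaned the other way. No marker was called by edgeR. At an unadjusted edgeR *p* under 0.05, 2 endothelial and 5 stellate markers were higher and 1 Kupffer and 1 cholangiocyte marker lower. Of all tested genes, 6.70% were higher and 6.76% lower at that threshold, and 47.9% had a positive log2 fold change. DESeq2 called 3 stellate markers higher and no marker of the other lists, where it called 1.48% of all genes higher and 1.78% lower. All markers were detected in every library except for 1 cholangiocyte marker at 0 in each of 2 wild-type libraries. The part of these shifts in the *Slco* values was not tested.

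**Figure D5:**
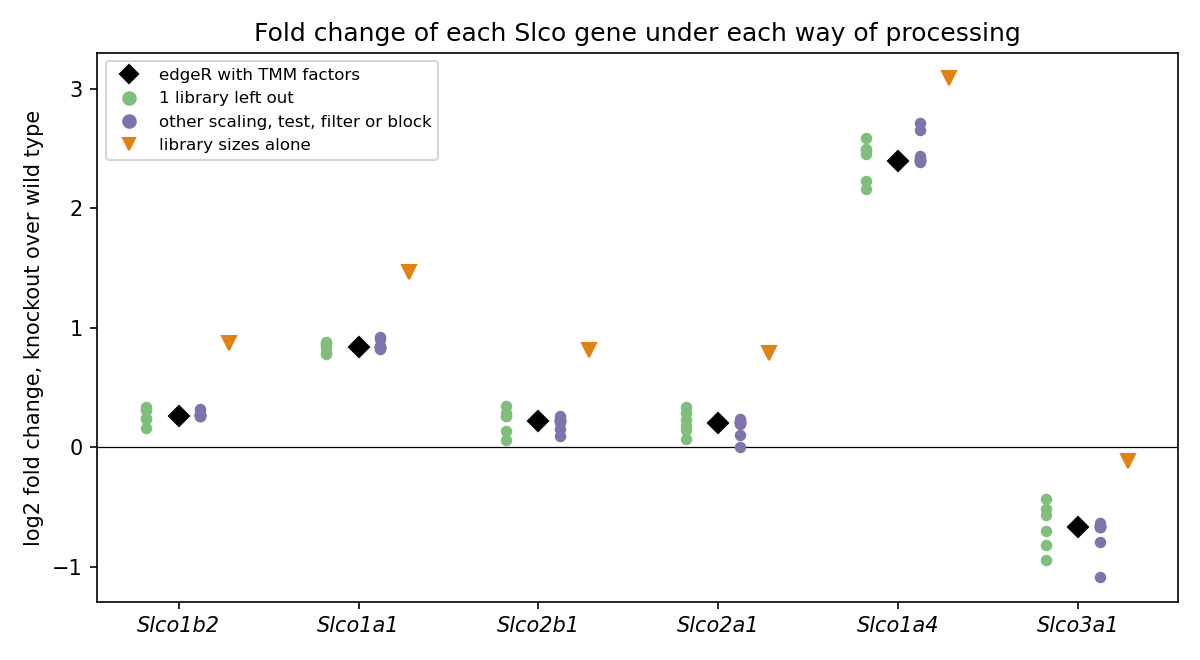
The log2 fold change of knockout over wild type for each *Slco* gene under edgeR with TMM factors (black), with 1 library left out (green), with another scaling, test, filter or replicate block (purple), and with library sizes alone (orange). *Slco1a4* stays between 2.16 and 3.09, the upper end with library sizes alone, where the median of all genes was 0.61. *Slco2a1* and *Slco2b1* lie close to 0 in several settings.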

How the data were processed

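Liver RNA of 3 *Alb-Cre;Tcf7l2 f/f* and 3 *Tcf7l2 f/f* mice was sequenced from strand-specific libraries. The authors deposited raw counts per gene, made with Bedtools 2.25.0 on mm10 from unique and multiple alignments; TopHat is named in the submitters' processing notes, and its version is not given in the sources used here. Such counts of multiple alignments can be shared by near-identical genes. The quantile normalisation of the study's methods was not applied to the deposited counts.

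Genes were tested with edgeR 4.0.16 (quasi-likelihood test, TMM, filterByExpr with min.count 10 and min.total.count 15; limma 3.58.1, R 4.3.3), with Benjamini-Hochberg adjustment over 14076 genes and a threshold of 0.05. SE is the absolute log2 fold change divided by the square root of F. CPM use TMM-scaled library sizes. Alternatives were DESeq2 1.42.0, limma, other scalings and filters, each library left out, and a replicate block. Scripts were tested on simulated data. No 2 libraries were copies.

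The 6 genes and the gene lists were chosen with earlier results of these data known. Named genes are the 6, every other *Slco* gene, *Tcf7l2*, up to 4 genes of each list with the smallest *p*, the 5 (*Slco1a4*) or 3 genes most correlated with each member, and genes within the *Slco1* cluster; which of the list genes to print was chosen with their values known, and 1 gene that the rule takes is not reported here. *Slc10a1*, *Nr1i2*, *Nfe2l2* and the cell markers *Alb* and *Ttr* were named for their role, with their values known. Transcript lengths and shared words came from GENCODE vM39, and gene positions and upstream sequence from RefSeq (GRCm38.p6).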

Additional observations from a re-analysis of the deposited data

How the results depend on the processing

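Each of the 6 *Slco* genes was followed under 17 alternatives. The log2 fold change of *Slco1a4* lay between 2.16 and 3.09, and between 2.16 and 2.59 when 1 library was left out. The value of 3.09 came with library sizes alone, where the median of all genes was 0.61. Since *Slco1a4* chose the family, its range is a description. The direction turned in 1 case: *Slco2a1* had −0.0014 under the replicate block on the full number, where *Slco3a1* had −1.09. Under that block knockout 7-3 and wild-type 8-1 have no library of the same number in the other genotype. They add nothing to the difference there, which rests on libraries 7-2 and 8-3 of each genotype. The count of the 6 called was 1 in edgeR, 1 with any library left out, and 2 with library sizes alone, DESeq2 or quantile-normalised counts, the second being *Slco1a1*. Over all genes, the 63 calls (10 higher, 53 lower) became 3024 with library sizes alone (2936 higher, 88 lower), 440 with DESeq2 (200 higher, 240 lower) and 96 with no filter on low counts, and lay between 24 and 89 with 1 library left out. The numbers 7-2 and 8-3 occur in both genotypes, but deviations of same-numbered libraries correlated at 0.00795 and −0.00686, so the number was not taken as a pairing, and whether it marks a litter or day is not known. The replicate block on the leading number gave 39 calls and that on the full number 49. *Blvrb* was called under both (adjusted *p*=0.0268 and 0.0317), *Gstm3* under the first (0.0268), and *Cyp2b10* was not called under the second (0.0947). Of the list genes, 5 were called, against 40 with library sizes alone, 22 with DESeq2, 8 with no filter, 8 with the replicate block on the leading number and 3 to 5 with 1 library left out. The order of levels kept 10 of 12 places per kb of coding sequence, as *Slco2a1* and *Slco1a4* changed places in knockout. The direction of *Fah* turned with library sizes alone (0.40, where the median of all genes was 0.61), and under the block on the full number *Mpv17* (−0.022) and *Zfp281* (−0.0070) turned. *Nr1i2* stood between −0.0068 and 0.22 with 1 library left out. Apart from these scalings, fits and left-out libraries, the cause of each change was not tested. With 3 livers per genotype, a member whose difference is near its SE, such as *Slco2b1* or *Slco2a1*, was not separated from 0. *Slco1b2* and *Slco3a1* were also not called by edgeR or under any alternative.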
